A study of Mus musculus with 24 samples.

Results

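The 32 genes described here encode chaperones, folding enzymes, degradation factors and stress sensors of the endoplasmic reticulum (ER), together with the transcription factors and phosphatase subunits of the unfolded protein response. They were chosen by symbol from the 26267 genes of the deposited table, and all 32 belonged to the 12628 genes that were tested, those reaching a normalised count of 10 in 2 or more libraries. The values come from polyadenylated RNA of LSK cells, the bone marrow fraction that lacks lineage markers, carries Sca-1 and Kit, and holds blood stem cells and early progenitors. Mice lacked Fancg and carried an Mdm4 transgene (FancgKO_Mdm4Tg), lacked Fancg (FancgKO), carried the transgene alone (Mdm4Tg) or were wild type (WT). Poly(I:C), a mimic of viral RNA used to raise interferon and push stem cells into cycle, was given to 2 FancgKO_Mdm4Tg, 3 FancgKO, 2 Mdm4Tg and 3 WT samples, and PBS to 3 FancgKO_Mdm4Tg, 4 FancgKO, 3 Mdm4Tg and 4 WT samples. The labels give no dose, time, age, sex or strain, name no promoter for the transgene, and do not say whether the samples came from separate animals, so p-values measure the spread between these samples, which may be technical.

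Secreted and membrane proteins enter the ER through the Sec61 channel and fold there with the help of chaperones that bind exposed chains, lectins that hold sugar-bearing chains and isomerases that form disulphide bonds. When unfolded proteins build up, the sensors IRE1, PERK and ATF6 start the unfolded protein response. IRE1 splices the Xbp1 messenger RNA, ATF6 is cut into a transcription factor, and PERK phosphorylates eIF2, which slows translation and favours ATF4. XBP1 and ATF6 raise chaperone and degradation genes, and ATF4 raises Ddit3 and Ppp1r15a. In blood-forming tissue the pathway is known for its high output in cells that secrete or store much protein, such as plasma cells and granule-forming myeloid progenitors, and for its tight control in stem cells. A count per gene does not show Xbp1 splicing, ATF6 cleavage or eIF2 phosphorylation.

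Many ER chaperone promoters carry the ER stress response element (ERSE), spelled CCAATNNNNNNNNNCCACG, which binds NF-Y together with ATF6 or XBP1. RefSeq promoter windows of build GRCm38.p6, from 250 bases before to 50 bases after each transcript start, could be matched to 27 members by symbol. The element, searched on both strands, was found in 8 of these 27 members (29.6%), against 37 of 27025 genes in the whole table (0.137%). The windows of all 8 are printed below because they join most of the lectin and chaperone genes whose values open the results. They are written 5′ to 3′ along the gene's strand with the element in capitals. In Calr, Creld2 and the second Hsp90b1 window the element reads on the opposite strand, as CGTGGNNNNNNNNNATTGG.
Hspa5 (chr2:34772020-34772048, plus strand): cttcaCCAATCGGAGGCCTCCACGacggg
Hsp90b1 (chr10:86705633-86705661, minus strand): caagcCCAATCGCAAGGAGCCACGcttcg
Hsp90b1 (chr10:86705528-86705556, minus strand): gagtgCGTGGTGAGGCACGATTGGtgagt
Calr (chr8:84847070-84847098, minus strand): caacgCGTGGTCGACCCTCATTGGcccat
Canx (chr11:50325795-50325823, minus strand): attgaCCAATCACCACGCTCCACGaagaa
Pdia6 (chr12:17266486-17266514, plus strand): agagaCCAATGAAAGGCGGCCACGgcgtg
Dnajc3 (chr14:118937822-118937850, plus strand): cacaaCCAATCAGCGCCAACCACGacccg
Creld2 (chr15:88819515-88819543, plus strand): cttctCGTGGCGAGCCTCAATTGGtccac
Syvn1 (chr19:6046527-6046555, plus strand): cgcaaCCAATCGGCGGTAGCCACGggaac

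A shorter form, ERSE-II, searched on both strands, was found in 2 of the 27 matched members (7.41%), against 12 of 27025 genes (0.0444%). It lay 52 to 42 bases before the start of Herpud1 and, in Dnajb11, 7 to 17 bases after it. The Herpud1 window is shown because this gene is a known carrier of that form, whose letters are in capitals.
Herpud1 (chr8:94386372-94386392, plus strand): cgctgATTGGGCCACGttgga
The XBP1-binding UPRE, TGACGTGG, was in 0 of the 27 windows and 0.714% of all genes. The ATF4-binding AARE, TGATGNAA, was in 1 of them (3.70%), Herpud1, against 4.51% of all genes. A match describes letters in a window and does not show binding, and the absence of a match says nothing about sites elsewhere. The motifs do not overlap in these windows.

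**Figure D1:**
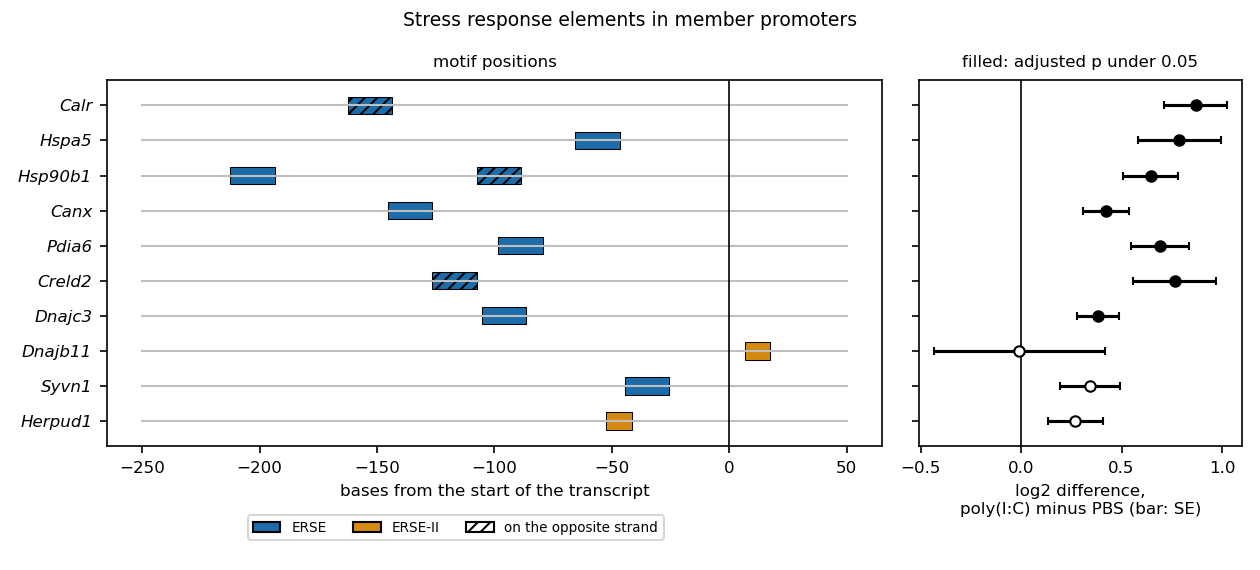
Positions of ERSE (blue) and ERSE-II (orange) in the promoter windows of the 10 members that hold either, in bases from the transcript start (left), and each member's log2 difference, poly(I:C) minus PBS, averaged over 4 genotypes with its SE (right; filled where the limma adjusted p was under 0.05). The ERSE copies lay between 212 and 26 bases before the start. Of their 8 genes 7 passed as higher, against 21 of all 32 members and 11.9% of all genes.

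Before the results, several measured differences between libraries have to be given. Depth was 1697596 to 8229715 reads (median 4251220) in the 10 poly(I:C) libraries and 807686 to 4801746 reads (median 1540399) in the 14 PBS libraries. An annotated ribosomal RNA gene was at 4555 to 22432 normalised counts (median 8003) with poly(I:C) and 7978 to 157689 (median 28839) with PBS. Mitochondrial genes held a median of 6.62% of counts with poly(I:C) and 5.39% with PBS, and 8.24% to 9.49% in the 4 poly(I:C) libraries of replicate 8. The part of either measure in the members' differences was not tested. Mdm4 was at 5023 to 7105 normalised counts in the 10 libraries labelled with the transgene and at 750.9 to 1293 in the other 14. Fancg, for which a single total over its exons cannot show which part was deleted, was at 26.1 to 71.4 in the 12 libraries labelled FancgKO and at 41.3 to 78.4 in the 12 others. Of the sort markers, Kit was at 1483 to 2075 with poly(I:C) and 1710 to 2414 with PBS, while Ly6a, which encodes Sca-1, was at 14.2 to 41.0 with poly(I:C) and 11.7 to 45.9 with PBS, a low level for a gene that the sort selects on. Xist exceeded 100 in 4 poly(I:C) and 2 PBS libraries, 2 of them among the 3 WT poly(I:C) libraries and 0 among the WT PBS libraries. The sample titles end in d (replicate numbers 6 and 7) or d_2 (numbers 2, 4 and 8), and Ppp1r15a was separated by suffix within each treatment, so values are also given within each. The 10 granulocyte and monocyte markers summed to 5866 to 23346 (median 12007) with poly(I:C) and 1465 to 14068 (median 2745) with PBS, where FancgKO replicate 6 (14068) and WT replicate 6 (12818) stood far above the other 12 libraries, which reached at most 6076.

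Poly(I:C) was compared with PBS as the mean of the 4 within-genotype differences, with 10 and 14 libraries. ER chaperone and foldase genes were higher with poly(I:C): 21 of the 32 members passed as higher and 0 as lower (limma on log2 of the normalised count plus 1, Benjamini-Hochberg adjusted p under 0.05 over all 12628 genes). Over all genes tested, 11.9% passed as higher and 11.6% as lower. The median log2 difference of the members was 0.44, against 0.013 over all genes, and 29 of 32 were positive. The calls covered 5 of 5 chaperones, 4 of 4 disulphide isomerases, 2 of 2 import factors, 4 of 6 cochaperones and secreted factors, 3 of 7 degradation factors, 2 of 6 sensors and transcription factors and 1 of 2 phosphatase subunits. Blocking on the replicate number gave 22 (16.0% of all genes), edgeR on the recovered reads 22 (14.4%) and DESeq2 21 (13.9%). Within the 4 poly(I:C) and 8 PBS libraries of suffix d_2 the count was 22 (17.6%). There each genotype has 1 poly(I:C) library, replicate 8, so the spread comes from the PBS pairs alone. The poly(I:C) libraries are assumed to vary like the PBS pairs. The PBS libraries there have numbers 2, 4 and 8, so treatment is in part mixed with replicate number. It is also mixed with depth, at 5491225 to 8229715 reads with poly(I:C) and 949156 to 4801746 with PBS. Within the 6 poly(I:C) and 6 PBS libraries of suffix d it was 0, where 0% of all genes passed, and there the spread includes both replicate 6 libraries with PBS. The 2 counts are therefore not alike in what they measure. Whether the suffixes differ in their response was not tested.

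**Figure D2:**
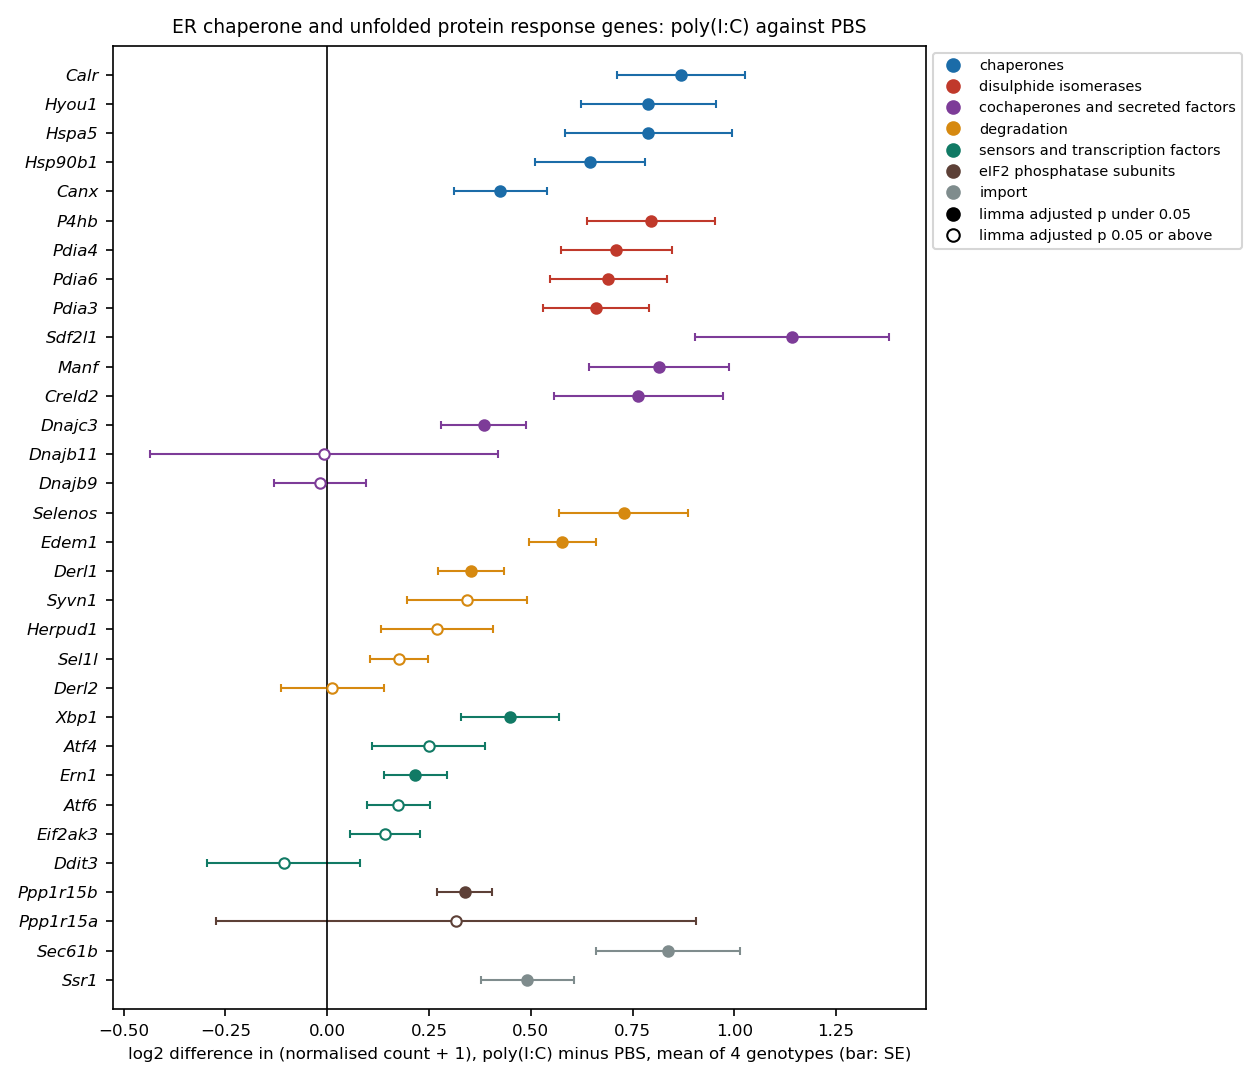
Log2 difference in (normalised count + 1), poly(I:C) minus PBS, averaged over 4 genotypes, for the 32 members ordered by role (points; bars are SE; filled points passed at a limma adjusted p under 0.05). Chaperones, isomerases and import factors lie between 0.42 and 0.87, and most sensors between -0.11 and 0.25.

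Calr (ENSMUSG00000003814, GRCm38 chr8:84841850-84846934, minus strand) encodes calreticulin, a lectin chaperone of the ER lumen and a calcium store, and was the highest of the chaperone group. Its normalised counts with poly(I:C) were 2037 and 3061 in FancgKO_Mdm4Tg, 3878, 1889 and 2717 in FancgKO, 2498 and 2396 in Mdm4Tg and 3083, 2335 and 2793 in WT. With PBS they were 1392, 1462 and 1209 in FancgKO_Mdm4Tg, 1234, 1440, 2905 and 1914 in FancgKO, 1050, 1363 and 1195 in Mdm4Tg and 1045, 2531, 1396 and 1072 in WT. The groups did not overlap in FancgKO_Mdm4Tg and Mdm4Tg, while PBS replicates 6 and 7 in FancgKO and PBS replicate 6 in WT reached into the poly(I:C) values. The averaged log2 difference was 0.87 ± 0.16 (SE, n = 10 and 14; limma adjusted p = 0.0010). It was 0.52 within suffix d and 1.19 within suffix d_2.

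The Calr level ran alongside the granulocyte and monocyte markers across libraries. FancgKO replicate 6 with PBS, with a marker sum of 14068, had 2905 counts of Calr, and FancgKO replicate 8 with poly(I:C), with 14111, had 2717. FancgKO replicate 7 had a marker sum of 5866 and 1889 counts of Calr with poly(I:C), and 6076 and 1914 with PBS. Other libraries of like sum differed in both directions. WT replicate 6 with PBS, of suffix d, had a sum of 12818 and 2531 counts of Calr. With poly(I:C), WT replicate 7, also of suffix d, had 12952 and 2335. Of suffix d_2 with poly(I:C), WT replicate 8 had 10989.5 and 2793, and FancgKO_Mdm4Tg replicate 8 had 12749 and 3061. The lowest marker sum, 1465 in WT replicate 8 with PBS, came with 1072 counts of Calr. All 10 markers passed as higher with poly(I:C), with a median log2 difference of 2.44, and Mpo, the most abundant, reached 16377. The part of these markers in the members' differences was not tested. In bulk RNA, more cells of a type and more RNA of these genes per cell cannot be told apart.

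**Figure D3:**
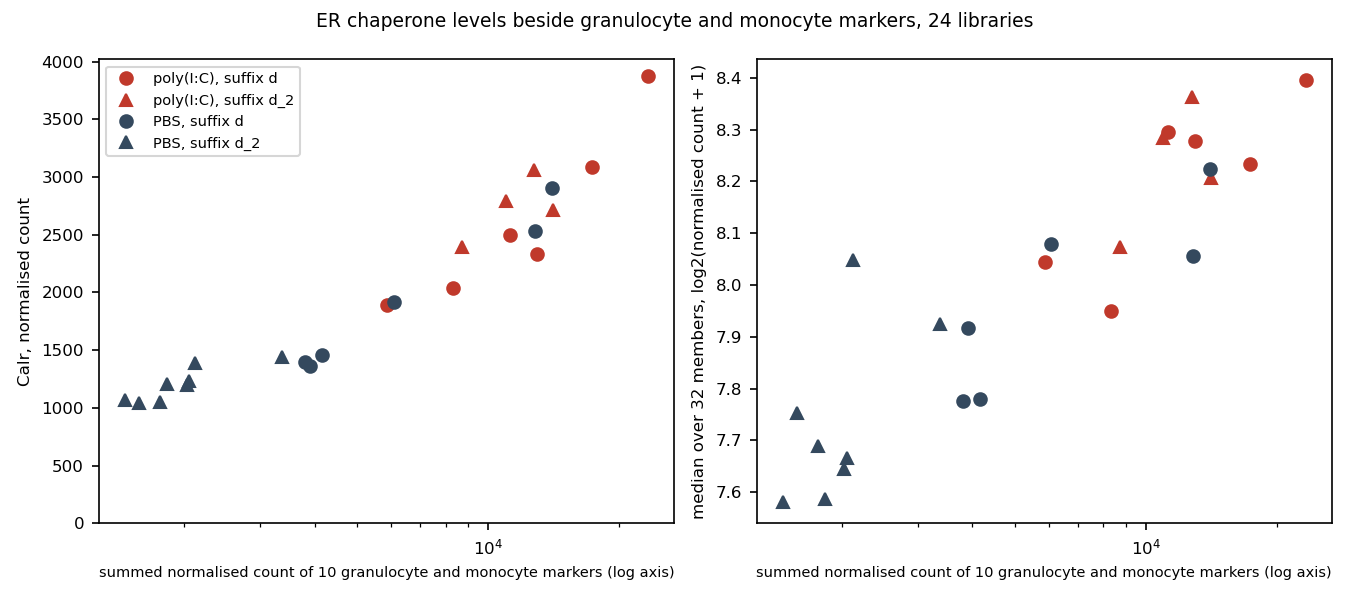
Each of the 24 libraries by the summed normalised count of 10 granulocyte and monocyte markers (log axis) against its Calr normalised count (left) and against the median over the 32 members of log2(normalised count + 1) (right); colours mark treatment and shapes the title suffix. The 2 PBS libraries with sums of 14068 and 12818 lie among the poly(I:C) libraries, at 2905 and 2531 counts of Calr.

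Hspa5 (ENSMUSG00000026864, GRCm38 chr2:34771970-34777547, plus strand) encodes BiP, the main Hsp70 chaperone of the ER, which also holds the sensors inactive. It was at 1494 to 3555 normalised counts with poly(I:C) (median 2057) and 748 to 2772 with PBS (median 1077). The highest values were 3555 in Mdm4Tg replicate 7 and 2928 in FancgKO replicate 6, both with poly(I:C), and the highest PBS values were 2772 and 2246 in replicate 6 of FancgKO and WT. All 10 poly(I:C) libraries lay above the PBS median, and 2 above every PBS library. The log2 difference was 0.79 ± 0.20 (SE, n = 10 and 14; limma adjusted p = 0.00959). Its median was 2334 under suffix d and 1714 under d_2 with poly(I:C), and 1730 and 950.2 with PBS. Within suffix d it was at 1927 to 3555 with poly(I:C) and 1367 to 2772 with PBS, which overlap. Within d_2 it was at 1494 to 2058 with poly(I:C) and 748 to 1093 with PBS, with no overlap.

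Hyou1 encodes a large Hsp70-type exchange factor of BiP, and Hsp90b1 encodes GRP94, the Hsp90 of the ER. Hyou1 was at 365 to 700 normalised counts with poly(I:C) and 183 to 571 with PBS, a log2 difference of 0.79 ± 0.17. Hsp90b1 was at 978 to 2001 with poly(I:C) and 737 to 1583 with PBS, a log2 difference of 0.65 ± 0.14, and its exons overlap those of an annotated pseudogene on the opposite strand. Canx encodes calnexin, the membrane-bound counterpart of calreticulin, and had the smallest difference of the 5 chaperones. It was at 1972 to 3608 with poly(I:C) and 1640 to 2512 with PBS, with 6 of 10 poly(I:C) libraries above every PBS library, a log2 difference of 0.42 ± 0.11. The limma adjusted p-values were 0.00251 for Hyou1, 0.00261 for Hsp90b1 and 0.0118 for Canx. With replicate numbers 6, 7 and 8 alone, Canx and Hspa5 did not pass (limma adjusted p = 0.0542 and 0.091).

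The 4 disulphide isomerases moved within a narrow range, from 0.66 to 0.80 on the log2 scale. P4hb, which encodes protein disulphide isomerase itself, was at 897 to 1958 normalised counts with poly(I:C) and 544 to 1350 with PBS, a log2 difference of 0.80 ± 0.16. Pdia3, the partner of calnexin and calreticulin, was at 863 to 1661 with poly(I:C) and 609 to 1103 with PBS, a log2 difference of 0.66 ± 0.13, with 6 of 10 poly(I:C) libraries above every PBS library. Pdia4 and Pdia6, isomerases found with BiP, had log2 differences of 0.71 ± 0.14 and 0.69 ± 0.14. The limma adjusted p-values of the 4 genes lay between 0.00145 and 0.00244. For all 4 the PBS maximum belonged to replicate 6 of FancgKO or WT.

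Among cochaperones and secreted factors, Sdf2l1 (ENSMUSG00000022769, GRCm38 chr16:17130138-17132383, minus strand) had the largest log2 difference of the 32. It encodes a partner of ER J-domain proteins that keeps BiP clients soluble. With poly(I:C) its normalised counts were 62.3 and 110 in FancgKO_Mdm4Tg, 148, 60.8 and 70.9 in FancgKO, 80.9 and 64.98 in Mdm4Tg and 104, 68.0 and 107 in WT. With PBS they were 45.1, 43.1 and 18.7 in FancgKO_Mdm4Tg, 29.8, 46.6, 105 and 58.8 in FancgKO, 24.7, 39.3 and 22.0 in Mdm4Tg and 28.6, 84.1, 35.1 and 23.3 in WT. The difference was 1.14 ± 0.24 (SE, n = 10 and 14; limma adjusted p = 0.00244), and the highest PBS values were again those of replicate 6.

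Manf and Creld2 encode small stress-induced proteins that are secreted or retained in the ER. Manf was at 145 to 338 normalised counts with poly(I:C) and 95.4 to 215 with PBS, a log2 difference of 0.82 ± 0.17 (limma adjusted p = 0.00256), and 7 of 10 poly(I:C) libraries lay above every PBS library. Its exons overlap those of Dcaf1 on the opposite strand, and whether the counting used strand is not stated. Creld2 was at 29.6 to 66.0 with poly(I:C) and 14.9 to 46.0 with PBS, a log2 difference of 0.76 ± 0.21 (limma adjusted p = 0.0122). The Creld2 call was lost when libraries were thinned to equal depth (0.49, limma adjusted p = 0.214) and with replicate numbers 6, 7 and 8 alone (0.0762). Dnajc3 encodes p58IPK, a J-domain protein that feeds clients to BiP, and was higher by 0.38 ± 0.10 (limma adjusted p = 0.0123), a call lost at equal depth (0.27, limma adjusted p = 0.115).

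The other 2 J-domain genes did not pass in the fit of all libraries. Dnajb9, which encodes ERdj4, an XBP1-dependent repressor of IRE1, was at 127 to 207 normalised counts with poly(I:C) and 127 to 246 with PBS, a log2 difference of -0.02 ± 0.11 (limma adjusted p = 0.927). Dnajb11, which encodes ERdj3, was at 93.2 to 249 with poly(I:C) and 68.9 to 2036 with PBS, a log2 difference of -0.01 ± 0.43 (limma adjusted p = 0.992). Its PBS spread came from 3 libraries, FancgKO replicate 4 at 2036, FancgKO_Mdm4Tg replicate 2 at 488 and WT replicate 2 at 484, while the other 11 PBS libraries were at most 155. These 3 libraries have suffix d_2, and 9 of 10 poly(I:C) libraries lay above the PBS median of 106. With the replicate block the difference was 0.57 (limma adjusted p = 0.0797). FancgKO replicate 4 is the only library with its number, so a block leaves its value of 2036 without weight. Number 2 occurs only with PBS. Dnajb11 passed as higher with replicate numbers 6, 7 and 8 alone (0.51, limma adjusted p = 0.0361), which leave out all 3 high libraries. It also passed with the block in edgeR (0.66, adjusted p = 0.0319).

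In ER-associated degradation, misfolded chains are recognised, drawn back to the cytosol and tagged for the proteasome. Edem1 (ENSMUSG00000030104, GRCm38 chr6:108828641-108859356, plus strand), which trims sugars on chains that fail to fold, had the smallest p-value of the 32. With poly(I:C) its normalised counts were 367 and 479 in FancgKO_Mdm4Tg, 484, 356 and 500 in FancgKO, 383 and 425 in Mdm4Tg and 441, 383 and 435 in WT. With PBS they were 263, 270 and 250 in FancgKO_Mdm4Tg, 273, 328, 370 and 291 in FancgKO, 288, 269 and 269 in Mdm4Tg and 286, 351, 241 and 252 in WT. The groups overlapped in FancgKO only, through its PBS replicate 6, and 8 of 10 poly(I:C) libraries lay above every PBS library. The difference was 0.58 ± 0.08 (SE, n = 10 and 14; limma adjusted p = 2.89e-04), at 0.45 within suffix d and 0.74 within suffix d_2.

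Selenos, a selenoprotein that anchors the degradation machinery in the membrane, rose by 0.73 ± 0.16, and Derl1, a channel component, by 0.35 ± 0.08 (limma adjusted p = 0.00332 and 0.00443). At equal depth Derl1 did not pass (limma adjusted p = 0.0599). In FancgKO_Mdm4Tg, Mdm4Tg and WT both had every poly(I:C) library above every PBS library, as 11.7%, 18.1% and 5.58% of all genes did. The share of all genes that did so in 3 of the 4 genotypes is not given here. The ubiquitin ligase gene Syvn1, which encodes HRD1, had a log2 difference of 0.34 ± 0.15 (limma adjusted p = 0.0928), its partner Sel1l 0.18 ± 0.07 (0.0721) and the stress-induced adaptor Herpud1 0.27 ± 0.14 (0.155). With the replicate block Syvn1 and Sel1l passed, at limma adjusted p = 0.00701 and 0.0483. Derl2, whose exons overlap those of Mis12 on the opposite strand, was at 102 to 187 normalised counts with poly(I:C) and 99.99 to 182 with PBS, a log2 difference of 0.01 ± 0.13 (limma adjusted p = 0.960).

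Of the sensors and their transcription factors, Xbp1 rose by 0.45 ± 0.12 (limma adjusted p = 0.0119). Its normalised counts with poly(I:C) were 191 to 337 (median 265), and with PBS 150 to 288 (median 183). All 10 poly(I:C) libraries lay above the PBS median and 2 above every PBS library. Ern1, which encodes IRE1, was at 397 to 611 with poly(I:C) and 337 to 519 with PBS. It rose by 0.22 ± 0.08 at a limma adjusted p of 0.0454. The call was lost in 8 of 16 alternative settings, among them the replicate block (limma adjusted p = 0.0524). It was also lost in 17 of the 24 fits that left out 1 library.

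Atf6 had a log2 difference of 0.17 ± 0.08 (limma adjusted p = 0.102), and Eif2ak3, which encodes PERK, 0.14 ± 0.09 (0.232). Atf4, whose protein level is set mainly by translation, was at 236 to 360 normalised counts with poly(I:C) and 168 to 379 with PBS, a log2 difference of 0.25 ± 0.14 (limma adjusted p = 0.191). Within suffix d_2 Atf4 and Atf6 passed as higher, at 0.37 and 0.35 (limma adjusted p = 0.0282 and 0.0137), against -0.019 and 0.011 within suffix d. Ddit3, which encodes the pro-death factor CHOP, was the lowest member by count, at 9.91 to 23.0 with poly(I:C) and 7.96 to 26.5 with PBS, a log2 difference of -0.11 ± 0.19 (limma adjusted p = 0.707). Its exons overlap those of Mars and of a second annotated Ddit3 gene model. At this depth 1 read was worth 0.308 to 3.27 normalised counts, so Ddit3 rested on few reads in the shallow libraries.

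The 2 subunits of the phosphatase that reverses eIF2 phosphorylation had like averaged differences with unlike errors. Ppp1r15b, the constitutive subunit, was at 462 to 623 normalised counts with poly(I:C) and 373 to 510 with PBS, rose by 0.34 ± 0.07 (limma adjusted p = 0.00173), and 8 of 10 poly(I:C) libraries lay above every PBS library. Ppp1r15a, which encodes the stress-induced GADD34, followed the title suffix. Under suffix d it was at 110 to 251 with poly(I:C) and 124 to 193 with PBS. Under d_2 it was at 20.3 to 27.1 with poly(I:C) and 7.96 to 54.0 with PBS, so the 2 suffixes did not overlap in either treatment. Its averaged log2 difference was 0.32 ± 0.59 (limma adjusted p = 0.724), and -0.12 with the suffix as a covariate.

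Both import factors rose. Sec61b, a subunit of the translocation channel, was at 85.7 to 231 normalised counts with poly(I:C) and 45.4 to 124 with PBS, a log2 difference of 0.84 ± 0.18 (limma adjusted p = 0.00267). Ssr1, a subunit of the translocon-associated complex, was at 1089 to 2134 with poly(I:C) and 950 to 1408 with PBS, a log2 difference of 0.49 ± 0.12 (limma adjusted p = 0.00511). Ssr1 within suffix d_2 was at 1737 to 2134 with poly(I:C) and 976 to 1216 with PBS, and within suffix d at 1089 to 1809 with poly(I:C) and 950 to 1408 with PBS. Set per length, the PBS medians of the 32 genes ran from 10.3 normalised counts per kilobase of merged exon for Ddit3 to 478 for Calr.

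**Figure D4:**
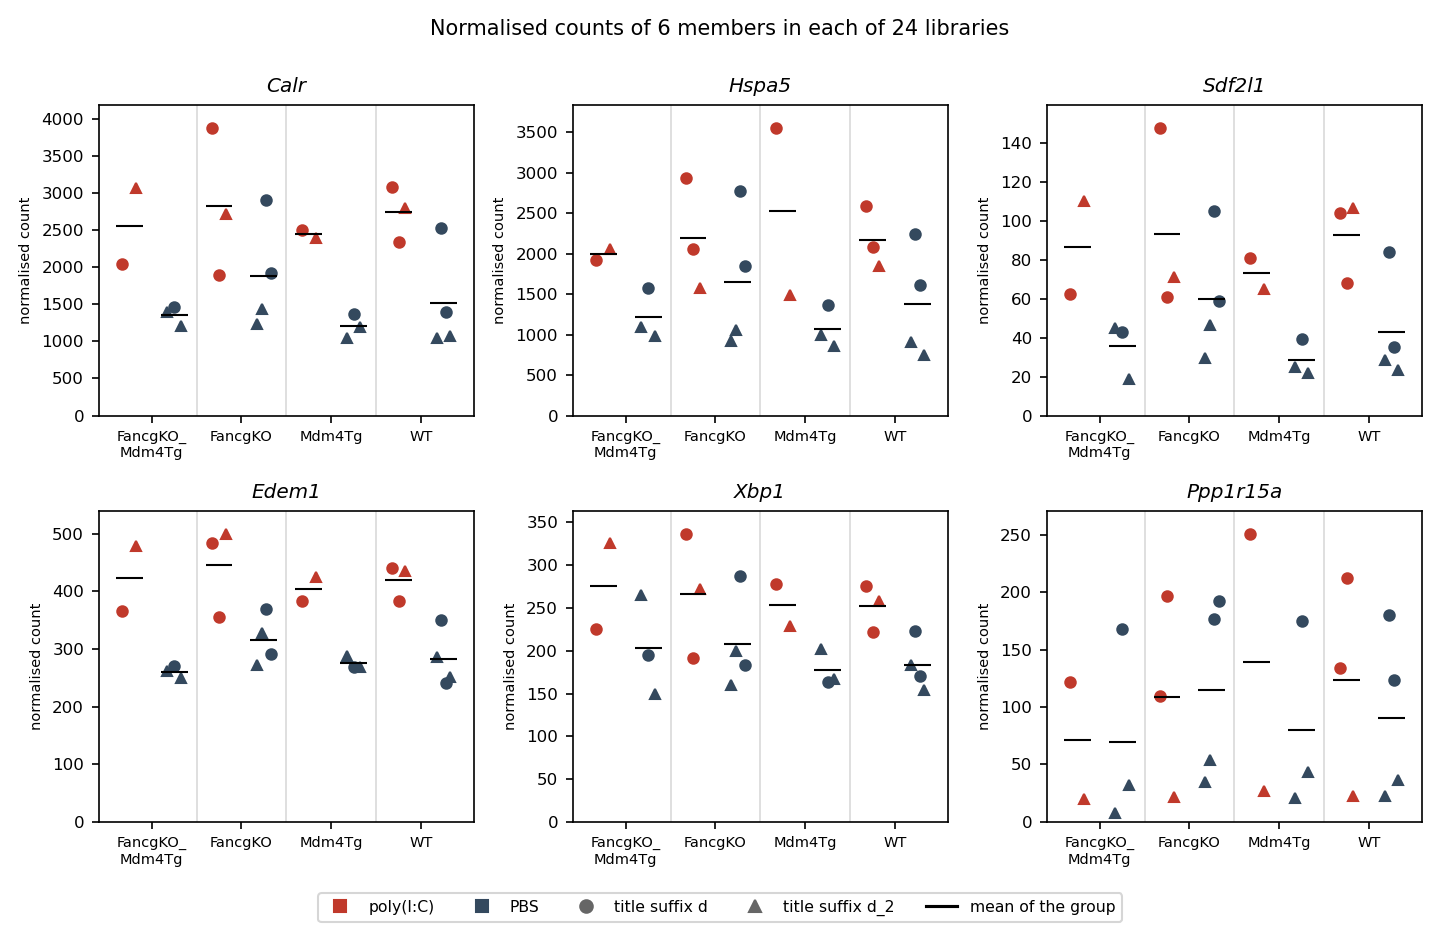
Normalised counts of 6 members in each library, by genotype, with poly(I:C) (red) left of PBS (dark) and group means as lines; circles have title suffix d and triangles d_2. The poly(I:C) libraries of Calr, Hspa5, Sdf2l1, Edem1 and Xbp1 have the higher mean in each genotype, and Ppp1r15a falls into 110 to 251 under suffix d and 7.96 to 54.0 under d_2.

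The members with an ERSE were set beside the others. Of the 8, 7 passed as higher, Syvn1 being the exception, with a median log2 difference of 0.67. Of the 19 matched members without one 10 passed, with a median of 0.32. Both stand beside 11.9% of all genes. The carriers include Calr and Hspa5, but not Sdf2l1, P4hb, Pdia3 or Sec61b, whose differences lay between 0.66 and 1.14. The 2 carriers of ERSE-II, Herpud1 and Dnajb11, did not pass. These counts are descriptions of 27 genes and were not tested.

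Within single genotypes the same direction was seen, with fewer calls. With poly(I:C) against PBS, limma called 0 of 32 members in each of FancgKO_Mdm4Tg, FancgKO, Mdm4Tg and WT, where 0%, 0%, 0% and 0.00792% of all genes passed as higher. At an unadjusted p under 0.05, 10 members were higher in FancgKO_Mdm4Tg (4.41% of all genes), 8 in FancgKO (3.37%), 15 in Mdm4Tg (6.65%) and 23 in WT (7.21%). At the same level 0 members were lower, where 4.16%, 3.86%, 6.06% and 7.68% of all genes were. Positive values numbered 30, 27, 31 and 29 of 32 in that order of genotypes, with medians of 0.45, 0.35, 0.53 and 0.53. DESeq2 called 1 member, Edem1, in WT (0.634% of all genes) and 0 in FancgKO_Mdm4Tg (0.0317%), FancgKO (0%) and Mdm4Tg (0.261%). EdgeR called 0 in FancgKO_Mdm4Tg (0%), FancgKO (0%), Mdm4Tg (0.0950%) and WT (0.0396%). Members with every poly(I:C) library above every PBS library numbered 10 in FancgKO_Mdm4Tg (11.7% of all genes), 0 in FancgKO (1.81%), 21 in Mdm4Tg (18.1%) and 8 in WT (5.58%).

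In WT the replicate numbers were taken to pair the libraries, from the correlation described under the processing, which cannot be told apart from the title suffix. The WT libraries form 3 such pairs, and WT PBS replicate 2 has no poly(I:C) partner. The block was fitted over all 24 libraries, so its effects and the spread come from every genotype. With the number as a block 18 members passed as higher in WT and 0 as lower, against 3.25% of all genes higher and 3.63% lower. Among them Hyou1 had a log2 difference of 0.81 ± 0.14 (limma adjusted p = 0.00271), Calr 0.81 ± 0.16 (0.0053), Edem1 0.56 ± 0.11 (0.00417), Hsp90b1 0.77 ± 0.17 (0.00749) and Hspa5 0.63 ± 0.18 (0.0386), with n = 3 and 4. Xbp1, at 0.48 ± 0.17, did not pass (limma adjusted p = 0.0840). The count fell to 2 without WT poly(I:C) replicate 8, 5 without WT poly(I:C) replicate 7, 7 without WT PBS replicate 8 and 12 without WT PBS replicate 2. Calls over all genes, in either direction, fell with it, from 869 to 217, 272, 292 and 588 in the same order. Without the block, leaving out WT PBS replicate 6, the library with the high myeloid marker sum, gave 10 calls in place of 0. The share of all genes called in that fit is not given here. WT poly(I:C) replicates 6 and 7 also differed from all WT PBS libraries in Xist, at 5943 and 20207 against at most 24.8, and the part of this difference was not tested.

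**Figure D5:**
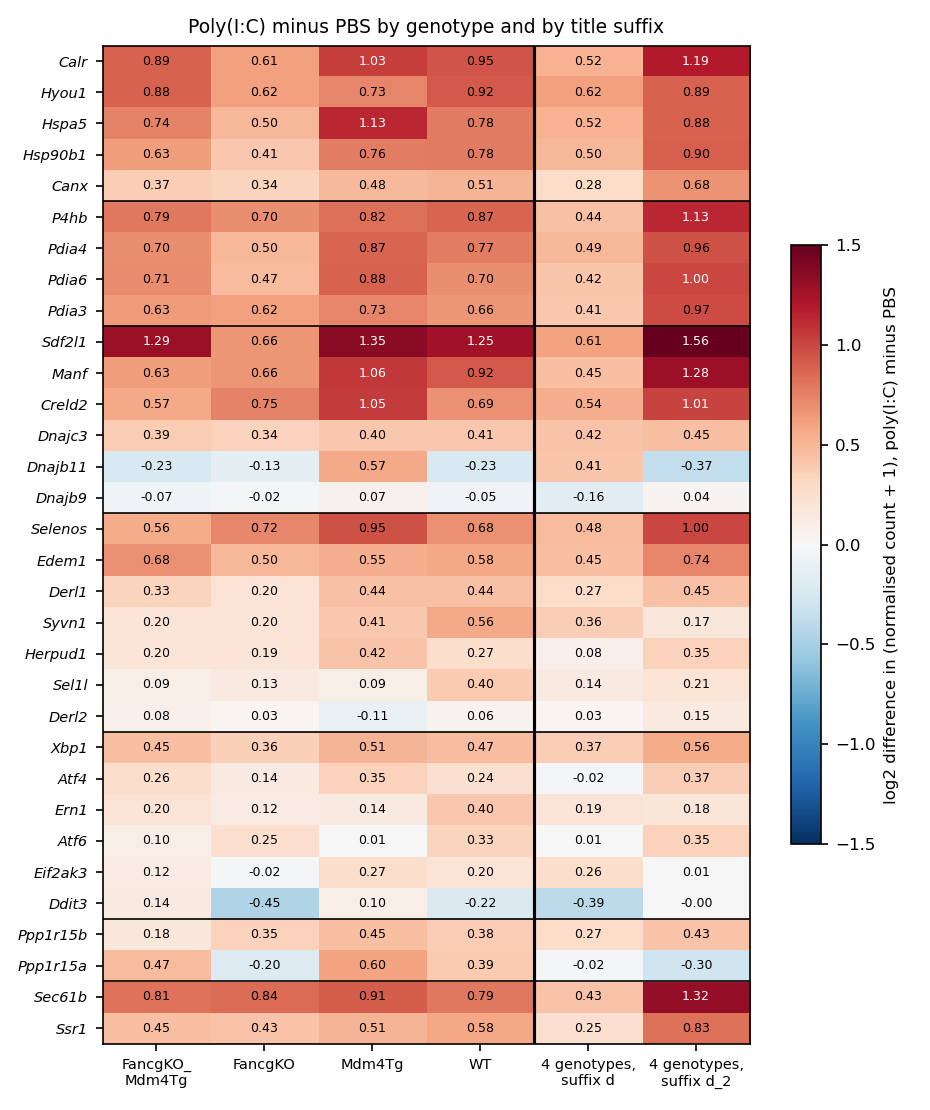
Log2 difference in (normalised count + 1), poly(I:C) minus PBS, of each member within the 4 genotypes (left columns) and averaged over genotypes within libraries of title suffix d and d_2 (right columns). Calr runs from 0.61 in FancgKO to 1.03 in Mdm4Tg and is 0.52 within suffix d and 1.19 within d_2.

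The response to poly(I:C) was then compared between genotypes, as the difference of the within-genotype differences. The comparisons share the WT libraries. Limma called 0 members for the response in FancgKO_Mdm4Tg, FancgKO or Mdm4Tg minus that in WT, with 0 at an unadjusted p under 0.05 in each, where 0.491%, 1.01% and 0.483% of all genes reached that level, and limma, edgeR and DESeq2 called 0% of all genes. The difference in response between FancgKO and WT was -0.33 ± 0.40 for Calr, -0.28 ± 0.53 for Hspa5 and -0.60 ± 0.61 for Sdf2l1, each within its error. In these differences 5 of 32 members were positive for FancgKO, 9 for FancgKO_Mdm4Tg and 19 for Mdm4Tg. The FancgKO and WT PBS groups each hold a replicate 6 with high chaperone values. With a median SE of 0.35 to 0.39, differences in response of the size seen could not be told from 0.

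Genotypes were also compared within each treatment, the question being whether Fancg loss, which leaves DNA crosslinks unrepaired, or the Mdm4 transgene, which restrains p53, shifts these genes. Limma, edgeR and DESeq2 each called 0 of 32 members in all 8 comparisons. Over all genes they called 0 genes for FancgKO against WT and 1 gene (0.00792%), or 2 (0.0158%) with DESeq2 for FancgKO_Mdm4Tg against FancgKO with PBS, in the comparisons that involve the transgene. For FancgKO against WT with PBS, 26 members were positive with a median of 0.16, and 0 reached an unadjusted p under 0.05, against 3.94% of all genes. Calr averaged 1874 ± 744 in FancgKO and 1511 ± 698 in WT with PBS (SD, n = 4 each), a log2 difference of 0.33 ± 0.26 (limma adjusted p = 0.999), and replicate 6 was the highest library of each group. With poly(I:C), Calr averaged 2828 ± 999 in FancgKO and 2737 ± 377 in WT (SD, n = 3 each), a log2 difference of -0.0048 ± 0.31, and 0 of 32 members reached an unadjusted p under 0.05 (0.364% of all genes).

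For FancgKO_Mdm4Tg against FancgKO with PBS, 6 members were positive with a median of -0.14, and 1 member, Ddit3, reached an unadjusted p under 0.05 (4.47% of all genes) at -0.99 ± 0.34 (limma adjusted p = 0.930). Its normalised counts were 7.96, 18.1 and 8.50 in FancgKO_Mdm4Tg and 17.2, 22.4, 24.8 and 26.1 in FancgKO, which overlap. The 2 low FancgKO_Mdm4Tg libraries have suffix d_2 and the 2 highest FancgKO libraries suffix d. The lowest log2 difference was that of Ppp1r15a, at -1.29 ± 1.07, the gene that followed the suffix. With poly(I:C), members lay between -0.62 and 0.23 for FancgKO_Mdm4Tg against FancgKO, and 0 reached an unadjusted p under 0.05 (0.198% of all genes). For FancgKO_Mdm4Tg against WT the medians were -0.02 with PBS and -0.09 with poly(I:C), and for Mdm4Tg against WT -0.12 and -0.08. In these 4 comparisons 0 members reached an unadjusted p under 0.05, against 2.53%, 0.412%, 2.51% and 0.333% of all genes.

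For the comparisons with WT in which the replicate numbers were taken to pair the libraries, the block called 0 members and moved some of these values. For FancgKO against WT with PBS the median stayed at 0.16, and 3 members reached an unadjusted p under 0.05 (10.6% of all genes). These were Calr at 0.40 ± 0.16, Ern1 at 0.29 ± 0.11 and Sel1l at 0.22 ± 0.10 (limma adjusted p = 0.384, 0.351 and 0.455). For FancgKO_Mdm4Tg against WT with PBS the sign of the median turned, to 0.11 with 26 members positive in place of 13, and 3 members, Dnajc3, Sel1l and Ppp1r15b, reached an unadjusted p under 0.05 (6.04% of all genes) at limma adjusted p-values of 0.79 to 0.82. For Mdm4Tg against WT with PBS the median was -0.014, and Sel1l alone reached that level (4.66% of all genes), at 0.30 ± 0.10 (limma adjusted p = 0.953). With poly(I:C), the comparison of FancgKO with WT had 0 such members (0.998% of all genes). These members are named after their values were seen.

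The remaining genes of the pathway were read from lists, chosen like the members with earlier results of these data known, for poly(I:C) against PBS averaged over genotypes. They are read against the 11.9% of all genes higher and 11.6% lower. Of 20 genes of N-glycosylation and the calnexin cycle, 14 were higher and 0 lower, with a median log2 difference of 0.40. Rpn1, a subunit of the oligosaccharyltransferase, was at 558 to 979 normalised counts with poly(I:C) and 290 to 749 with PBS (0.82 ± 0.14), and its partners Tmem258 and Ddost moved by 0.65 each (limma adjusted p = 7.43e-04, 0.00494 and 0.00549). Of 22 ER import genes 12 were higher and 1 lower, led by the translocon-associated subunits Ssr2 (0.70 ± 0.16) and Ssr4 (0.62 ± 0.15) and the channel gene Sec61a1 (0.56 ± 0.10).

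Of 19 tested genes of ER oxidation and prolyl isomerisation, 11 were higher and 1 lower. Ero1l, the oxidase that recharges disulphide isomerases, moved by 0.70 ± 0.14, Ppib, a cyclophilin, by 0.53 ± 0.13 and Erp29 by 0.51 ± 0.14. Transport between ER and Golgi followed, with 9 of 17 genes higher and 0 lower, among them the coat gene Sec24d (0.65 ± 0.13), the retrieval receptor Kdelr2 (0.61 ± 0.11) and the cargo receptor Surf4 (0.60 ± 0.11). The limma adjusted p-values of these 6 genes were between 0.00101 and 0.0122.

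The degradation and signalling lists were read in the same way. Of 24 other genes of ER-associated degradation, 4 were higher and 1 lower, with Ube2g2 at 0.41 ± 0.13 and Nploc4 at 0.36 ± 0.08. Of 14 other ER cochaperones 4 were higher and 1 lower, with Hspa13 and Dnajc25 at 0.49 each and Dnajc1 at -0.28 ± 0.09. Of 12 tested genes of the sensor machinery 2 were higher, Creb3l2 at 0.36 ± 0.12 and Tmbim6 at 0.35 ± 0.08. Of 17 genes of eIF2 phosphorylation 3 were higher and 1 lower, with Eif2b1 at 0.52 ± 0.11, the phosphatase catalytic subunit Ppp1ca at 0.49 ± 0.11 and Impact, an inhibitor of the kinase GCN2, at -0.28 ± 0.09. Of 22 tested ATF4 targets 9 were higher and 1 lower, with the amino acid transporter Slc7a5 at 0.59 ± 0.14, the tRNA synthetase gene Nars at 0.43 ± 0.11 and the lipoprotein receptor Vldlr at -1.35 ± 0.25.

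Chaperones outside the ER were also counted. Of 21 cytosolic chaperone genes 9 were higher and 0 lower, with Hsp90aa1 at 0.43 ± 0.11, Stip1 at 0.36 ± 0.10 and Cct8 at 0.36 ± 0.11, and of 9 mitochondrial ones 6 were higher, with Grpel1 at 0.63 ± 0.12, Hspe1 at 0.62 ± 0.16 and Hspd1 at 0.49 ± 0.11.

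Markers of the cells that the sort could hold moved in the same comparison. Besides the granulocyte and monocyte markers, 5 of 6 tested erythroid markers were higher, with sums of 564 to 1889 with poly(I:C) and 505 to 1039 with PBS, and Alas2 was at 0 in all PBS libraries. Of 7 mast cell and basophil markers 5 were higher, with sums of 846 to 1266 with poly(I:C) and 370 to 837 with PBS. Of 11 tested stem cell markers 9 were lower and 0 higher, with sums of 3662 to 5895 with poly(I:C) and 4798 to 7947 with PBS. Proliferation genes were higher in 7 of 12 cases, with sums of 7733 to 9048 with poly(I:C) and 6394 to 8796 with PBS. B and plasma cell markers, whose cells have the most developed ER, summed to 177 to 414 with poly(I:C) and 193 to 976 with PBS, with 0 of 6 tested higher and 1, Ighm, lower. Mature neutrophil markers summed to 5.43 to 41.3 with poly(I:C) and 0 to 13.1 with PBS. The single one tested, S100a8, was higher. The PBS sums lie near or below the filter value of 10, so this call is not read as a result. T and NK cell markers summed to 200.1 to 362 with poly(I:C) and 136 to 271 with PBS, with Nkg7 higher, Lck lower and Cd3g at 0 in all PBS libraries. Stroma and endothelium markers summed to 30.3 to 116 with poly(I:C) and 29.2 to 189 with PBS, with Col3a1 at 0 in all poly(I:C) libraries and the single tested marker not past the threshold. Of 10 tested interferon response genes 1 was higher and 2 were lower. The single marker genes are named after their values were seen. The part of these cell-type and cycle genes in the members' differences was not tested.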

How the data were processed

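RNA with poly(A) tails from sorted LSK cells was sequenced in 24 libraries, made with the CATS RNA-seq Kit v2 and run on a NextSeq 500, per the labels' protocols. STAR and the mm10 build are named in the submitters' processing notes. The counting tool, annotation, strand setting, use of molecular identifiers and scaling tool are not given in the sources used here. The authors deposited 1 table of normalised counts, a depth-scaled signal of reads per gene divided by a factor per library. Every value (100%, relative tolerance 1e-06) was a whole multiple of the worth of 1 read, so reads were recovered for edgeR and DESeq2. Of 26267 genes, 16217 have symbols in the table, 10006 were named from a GRCm38 table and 44 have no name.

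The main test was limma 3.58.1 (R 4.3.3, trended variance) on log2(normalised count + 1), with 8 group means and no block, for 12628 genes with a value of at least 10 in at least 2 libraries. Fold changes on this scale understate the change of low genes. P-values were adjusted over these genes by the Benjamini-Hochberg method, with 0.05 as threshold. The script was checked on simulated data with 200 changed genes. EdgeR 4.0.16 and DESeq2 1.42.0 were alternatives, beside other pseudocounts (5 and 0.5), filters (50, or none), TMM scaling, covariates for title suffix and Xist, each suffix alone, and leaving out each library. Thinning to the smallest library, replicate numbers 6, 7 and 8 alone, edgeR with the block, and leaving out libraries with Xist over 100 were chosen after seeing the data. Symbols and positions follow GRCm38 tables, and promoters were read from RefSeq windows of GRCm38.p6. Depth limits the precision, and reads without molecular identifiers are not independent molecules.

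Replicate numbers are the digits that open the sample titles, and nothing in the labels says what they share. Deviations from group means correlated with a median r of 0.343 over 61 same-numbered pairs, against -0.163 over 189 other pairs. Each of at least 3 pairs exceeded 0.1 for poly(I:C) against PBS in WT (0.231 to 0.448), for the 3 mutant genotypes against WT with PBS, and for poly(I:C)-treated FancgKO against WT. There the numbers are taken to pair the libraries, from the data and not from the labels. Libraries of one number also share the title suffix. Pairs of one suffix with different numbers were not set apart, so pairing by number cannot be told apart from the suffix.

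The members and gene lists were chosen with earlier results of these data known. All 32 members are named, with up to 3 genes of each list that passed, had a mean of at least 50 normalised counts and the largest absolute log2 differences. Single genes that this rule would name are in part not reported here.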

Additional observations from a re-analysis of the deposited data

Results flagged for a closer look

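Of 64 groups of 4 libraries tested over the 32 members, 2 had 1 library far from the rest, and chance flags about 1 in 20. Both concern Dnajb11 with PBS. FancgKO replicate 4 had 2036 normalised counts, against 68.9 to 154.8 in the other 3 libraries of that group. WT replicate 2 had 484.4, against 95.3 to 123.9 in its other 3 libraries. Another high value, 488 in FancgKO_Mdm4Tg replicate 2 with PBS, lies in a group of 3, which was not tested. In the same 3 libraries, taken in the order named, Calr was at 1440, 1045 and 1392 and Hspa5 at 1062, 908 and 1093.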

How the results depend on the processing

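The count of 21 members called for poly(I:C) against PBS averaged over genotypes was 17 to 24 under every alternative except within suffix d, where it was 0. Where no share of all genes stands beside an alternative above, its count has no background here. Leaving out 1 library gave 16 (without FancgKO_Mdm4Tg poly(I:C) replicate 8) to 23 (without FancgKO poly(I:C) replicate 7). Calls over all genes, in either direction, were 1554 and 3365 in these 2 fits, against 2974 with all libraries. The members' median log2 difference stayed between 0.36 and 0.62. Within single genotypes, where 0 members were called, the replicate block gave 18 in WT, 14 in Mdm4Tg, 2 in FancgKO_Mdm4Tg and 0 in FancgKO. Of all 12628 genes the block called 411, 288, 48 and 0 as higher, in the same order. The block with edgeR gave 22 in WT, 19 in Mdm4Tg, 5 in FancgKO_Mdm4Tg and 0 in FancgKO. Its counts over all genes are not given here, so these members cannot be set against a background. In WT the suffix covariate gave 2, DESeq2 gave 1 (0.634% of all genes), and leaving out a library gave 0 to 10. For the suffix covariate and the left-out libraries in WT the share of all genes is not given here. In the other genotypes, between genotypes and for the responses compared, leaving out a library gave 0 to 0. In Mdm4Tg and FancgKO_Mdm4Tg the numbers are shared by only 2 libraries of each treatment and do not establish pairs. The block changed no call between genotypes or between responses. It turned the median's sign for FancgKO_Mdm4Tg against WT with poly(I:C) (0.06), Mdm4Tg against WT with poly(I:C) (0.04) and FancgKO_Mdm4Tg against FancgKO with poly(I:C) (0.07).

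Signs turned for 5 members that had not passed. Dnajb9 was 0.0415 within suffix d_2 and -0.065 to 0.045 leaving out a library. Dnajb11 was 0.00084 with TMM scaling, 0.57 with the replicate block, 0.092 with the suffix covariate, 0.13 with the Xist covariate, 0.41 within suffix d, 0.51 with replicate numbers 6, 7 and 8 and 0.66 with the block in edgeR (both passed as higher), and -0.14 to 0.26 leaving out a library, the highest without FancgKO PBS replicate 4. Atf4 was -0.019 within suffix d. Derl2 was -0.056 to 0.080 leaving out a library. Ppp1r15a was -0.28 with the replicate block, -0.12 with the suffix covariate, -0.092 with the Xist covariate, -0.022 within suffix d, -0.30 within d_2, -0.49 with numbers 6, 7 and 8, -0.24 with the block in edgeR, -0.36 without the libraries with Xist over 100, and -0.080 to 0.71 leaving out a library. In the block FancgKO PBS replicate 4 has a number of its own, so its Dnajb11 value carries no weight there. The cause of these turns was not tested. Shallow PBS libraries limit Ddit3, at 3 to 30 reads there, and Creld2.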

Other observations

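Outside the 32 members, 29 genes had an ERSE in the RefSeq promoter window, and 6 of them passed the filter on low values. These 6 are Acacb, Adcy3, Alg12, Hnrnpa3, Pan2 and Zfp57. With poly(I:C) averaged over genotypes 0 were higher and 1 was lower (limma adjusted p under 0.05), against 11.9% and 11.6% of all genes. Of the 6, 3 were positive and the median log2 difference was -0.04. The lower gene was Zfp57, an imprinting factor, at -1.40 ± 0.29. It was a low gene, at 0 to 7.08 normalised counts with poly(I:C) and 3.93 to 17.0 with PBS. Zfp57 passed the filter of 10 only through PBS libraries, where it is high, so its call is not read as a result. Alg12, a mannosyltransferase of N-glycan assembly in the ER, was at 19.0 to 33.4 with poly(I:C) and 13.1 to 46.7 with PBS, a log2 difference of 0.14 ± 0.18.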
